A study of Homo sapiens with 22 samples.

Results

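Nuclear genes for the mitochondrial protein import machinery, and for the chaperones and proteases that act on imported proteins, are described here. The 38 members were taken by gene symbol from a list written from their known roles, out of 20411 genes in each table. The rule itself uses no measured value, but the list was chosen with earlier results of these data known. Its shares beside those of all genes are therefore descriptive. They fall into the translocase of the outer membrane (TOM), the small TIM chaperones, the TIM22 and TIM23 translocases of the inner membrane, the import motor, the matrix chaperone TRAP1, the proteases and the processing peptidases. Expression was measured by poly(A) RNA-seq in the acute myeloid leukemia cell lines MOLM-13 and NB4, both labelled wild type. Cells were treated with 2 μM FP54, a PROTAC that links an FTO ligand to a VHL ligand so that the m6A eraser FTO is degraded, or with DMSO alone, for 48 hours. Each of the 4 groups had 3 libraries, 12 in all. The other 10 of 22 labelled samples, m6A-seq and polysome-seq libraries of MOLM-13 cells, were not analysed here. Each cell line was 1 line with no other genotype, and no inactive form of FP54 was among the groups compared.

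Nearly all mitochondrial proteins are made in the cytosol and enter as unfolded precursors. Receptors of the TOM complex bind the precursor and pass it through the TOMM40 channel. Small TIM chaperones then carry hydrophobic proteins to TIM22, while TIM23 and the HSPA9-driven motor pull presequence proteins into the matrix, where peptidases trim them, chaperones fold them and ATP-dependent proteases remove those that misfold.

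Levels are given as RPKM, the reads on a gene scaled by its length and by the library total. FP54 was compared with DMSO in each cell line by limma on log2(RPKM + 0.1), over genes with a mean of at least 1 RPKM in that line. A gene was called lower or higher when its unadjusted p was below 0.01 and its log2 fold change was 0.5 or more in size, as in the methods of the study. Adjusted p-values are Benjamini-Hochberg values over all genes tested, and fold changes on this scale understate the change of low genes. Nothing in the labels says that replicates were separate cultures, so the p-values measure the spread between these libraries, which may be technical. With 3 libraries in each group, the smallest p of an exact permutation test is 0.1. In bulk libraries, fewer cells of a type and less RNA per cell cannot be told apart.

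Depth, marker genes and the target were checked first. Library totals implied by the RPKM were 16299701 to 17346914 reads in the MOLM-13 DMSO libraries and 5829730 to 19191055 in the FP54 libraries, FP54 replicate 2 being the shallowest. In NB4 cells these totals were 10595647 to 13071303 reads in the FP54 libraries, all below the 20654055 to 22344266 of the DMSO libraries. The part of this gap in the NB4 results was not tested. Of 6 myeloid markers, SPI1, CD33 and LYZ were at 12.65 RPKM or more in every library. CSF1R, ITGAM and MPO, the other three, were lower in places, at 2.45 to 3.39 RPKM (CSF1R in NB4), 3.39 to 4 RPKM (ITGAM in NB4 with DMSO) and 3.29 to 4.64 RPKM (MPO in MOLM-13 with FP54). HOXA9, MEIS1 and FLT3, which mark leukemias with a KMT2A rearrangement, were each at a higher level in every MOLM-13 than in every NB4 library. Of 4 promyelocyte markers, MPO was at 1082 RPKM or more in every NB4 library and at 18.1 RPKM or less in MOLM-13 cells. ELANE, PRTN3 and AZU1 went the other way, at 0.218, 69 and 11.7 RPKM or less in NB4 cells and at 121.8, 255.4 and 149.4 RPKM or more in MOLM-13 cells. So 3 of the 4 were lower in the line that derives from promyelocytic leukemia, although levels were not tested across the 2 tables. With FP54, MPO fell in both lines, from 2036 RPKM or more to 1149 RPKM or less in NB4 cells. PRTN3 fell from 55.2 RPKM or more to 16.9 RPKM or less in NB4 cells and overlapped in MOLM-13 cells. ITGAM rose in both lines, reaching 13.2 RPKM or more in NB4 cells. LYZ and ELANE overlapped between the treatments in both lines. The part of these shifts in the results was not tested. All 13 markers of T, B, erythroid, epithelial and fibroblast cells were below 1 RPKM in MOLM-13 cells. Their summed level in NB4 cells was 15.5 to 16.9 RPKM with DMSO and 21.5 to 24.7 RPKM with FP54, mostly CD3D and EPCAM, and its part in the results was not tested. FTO mRNA was at 1.01 ± 0.0767 RPKM with DMSO and 1.01 ± 0.118 RPKM with FP54 in MOLM-13 cells (SD, n = 3). It was at 2.73 ± 0.18 and 2.03 ± 0.0782 RPKM in NB4 cells, a log2 fold change of −0.41 (limma adjusted p = 0.0119) that was under the fold minimum. The level of the FTO protein was not measured in these files.

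More import genes were called lower than higher with FP54 in both cell lines. In MOLM-13 cells 9 of the 36 members tested (25%) were called lower and 0 were called higher, where 9.04% of all 9710 genes tested were called lower and 9.3% higher. Without the filter on low values 2 of the 9 MOLM-13 calls were kept, HSPA9 and TIMM44, beside 2.6% of all genes called lower. In NB4 cells 13 of 36 (36.1%) were called lower and 0 higher, where 10.7% of all 9853 genes tested were lower and 18.6% higher. At an adjusted p below 0.05 and the same fold minimum, limma again gave 9 and 13 members lower and 0 higher. By limma-voom on the recovered reads 0 members were higher in either line, and at an unadjusted p below 0.05 with no fold minimum 1 was higher in MOLM-13 (SPG7) and 2 in NB4 cells (LONP1 and SPG7). The median log2 fold change of the tested members was −0.39 in MOLM-13 and −0.33 in NB4 cells. Over all genes tested the medians were 0.003 and 0.07, so the members' median lay 0.40 below that of all genes in each line.

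Every FP54 library was below every DMSO library for 12 of the 36 members in MOLM-13 cells, and above every DMSO library for 1 member. The corresponding shares of all genes were 17% and 20.2%. For NB4 cells the counts were 19 members lower and 4 higher, beside 26.2% and 34.3% of all genes. The RPKM of the 38 members, summed in each library, was 787 ± 104 with DMSO and 615 ± 34 with FP54 in MOLM-13 cells, or 78.2% of the DMSO mean (SD, n = 3). The NB4 sums were 1073 ± 51.9 and 888 ± 21.3, or 82.8%. Summed over all genes, RPKM with FP54 was 98.4% of the DMSO mean in MOLM-13 and 93.3% in NB4 cells.

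The scaling of the libraries bears on the NB4 counts. Median-ratio scaling moved the median of all genes in NB4 cells by −0.20 on the log2 scale, and the calls over all genes from 1050 lower and 1834 higher to 2008 lower and 1184 higher. It gave 18 members lower and 0 higher, beside 20.4% of all genes lower, and left the members' median 0.40 below that of all genes. Quantile normalization moved the NB4 median of all genes by −0.10, and left the members 0.30 below all genes. It gave 10 members lower and 0 higher, beside 13.9% of all genes lower. Of the 13 NB4 calls it kept 7, lost TOMM22, TIMM8B, TIMM10, TIMM13, TIMM23 and TRAP1, and added HTRA2, TIMM22 and TIMM8A. In MOLM-13 cells neither scaling moved the median of all genes by more than 0.03, and both gave 9 members lower.

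The MOLM-13 calls turned on single libraries more than the NB4 calls. DMSO replicate 2 was the lowest of the 3 DMSO libraries for 34 of the 36 members (94.4%), where it was the lowest for 47.2% of all genes tested. Leaving it out gave 19 members called lower, beside 12.4% of all genes. The count was 6 with DMSO replicate 1 left out (5.63% of all genes), and 4 with either DMSO replicate 3 (4.76%) or FP54 replicate 1 (5.19%) left out. TOMM40, TIMM44, HSPA9 and TRAP1 were called lower with each library left out in turn. With no filter on low values TOMM40 and TRAP1 lost the call, at unadjusted limma p-values of 0.0125 and 0.0191, so that under every setting TIMM44 and HSPA9 alone kept it. The other 5, TOMM22, TIMM13, TIMM21, TIMM50 and LONP1, lost the call with either of the last 2 left out, among others, at log2 fold changes of −0.85 to −0.55 and unadjusted limma p-values of 0.0109 to 0.0192. In NB4 cells leaving out 1 library gave 10 to 14 members lower, beside 10% to 11.1% of all genes. TOMM5, TOMM40, TIMM10, TIMM17A, TIMM21, TIMM23, TIMM50 and GRPEL1 were called each time, and all of these but TIMM10 and TIMM23 were called under every other setting too. TOMM22, TOMM40L, TIMM8B, TIMM13 and TRAP1 fell under the fold minimum without at least 1 library, at log2 fold changes of −0.49 to −0.43.

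**Figure D1:**
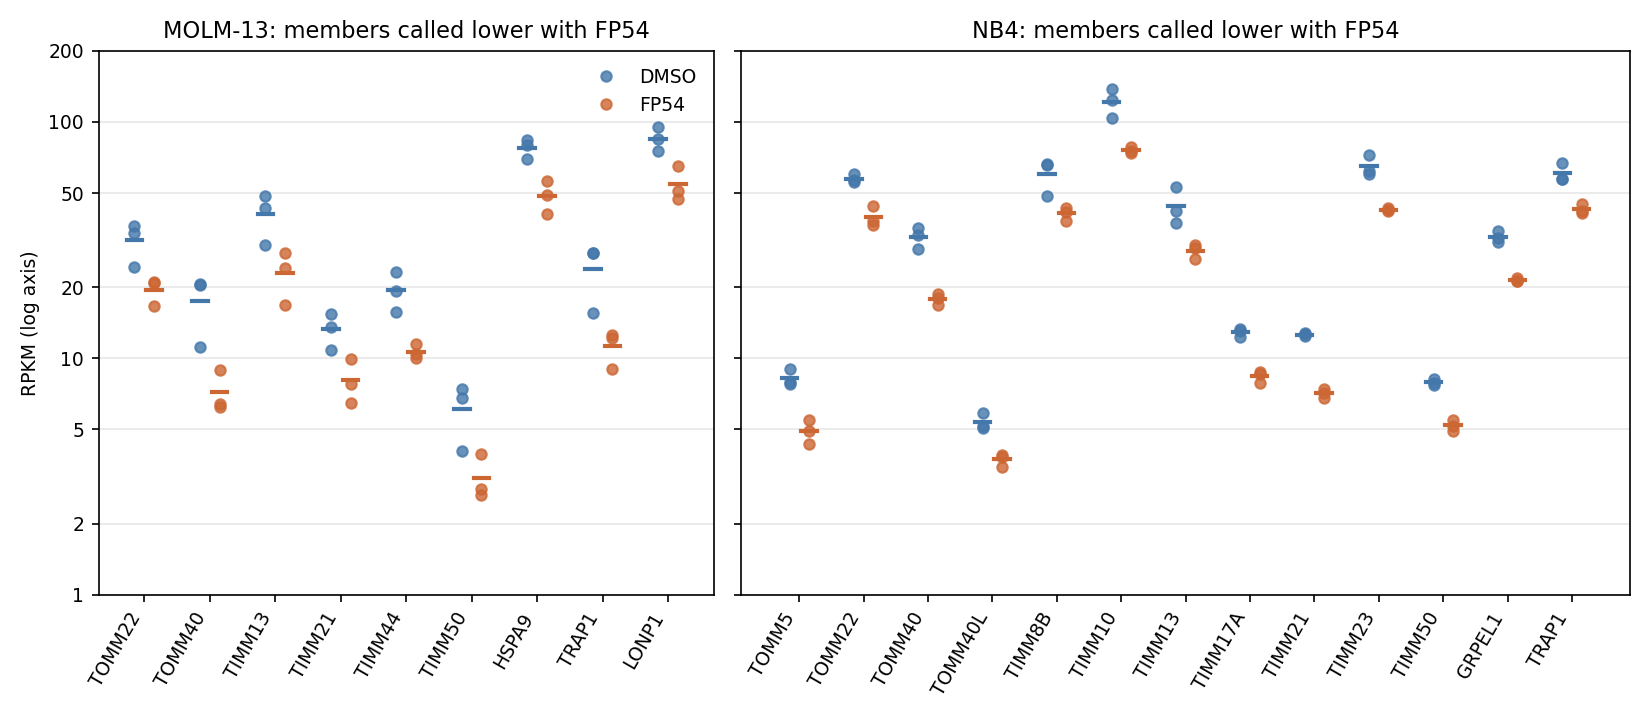
RPKM of every library (points, log axis) and the group mean (bar) for the 9 members called lower in MOLM-13 cells and the 13 called lower in NB4 cells, DMSO in blue and FP54 in orange. In both panels the FP54 points of each gene sit below all of its DMSO points, and the lowest MOLM-13 DMSO point of each gene is replicate 2.

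TOM is the entry gate of the organelle. Of its 8 tested members, 2 (MOLM-13) and 4 (NB4) were called lower, with TOMM40 the most changed in each. TOMM40, the channel itself, lies on chromosome 19 (44890569 to 44903689, hg38). It was at 20.5, 11.1 and 20.7 RPKM in the MOLM-13 DMSO libraries and at 6.24, 6.41 and 8.89 RPKM with FP54. The groups did not overlap, and DMSO replicate 2 lay nearest to the FP54 libraries. The log2 fold change was −1.23 (SE 0.25, limma adjusted p = 0.0101). In NB4 cells TOMM40 was at 29, 35.4 and 33.2 RPKM with DMSO and at 18.8, 18 and 16.9 RPKM with FP54, a log2 fold change of −0.86 (SE 0.10, limma adjusted p = 4.65e-05). Again no FP54 library reached a DMSO library.

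TOMM22, the central receptor that holds the complex together, was called lower in both lines. Its MOLM-13 levels were 33.9, 24.4 and 36.3 RPKM with DMSO and 16.7, 20.8 and 21 RPKM with FP54 (log2 fold change −0.68, limma adjusted p = 0.0264). Its NB4 levels were 55.6, 59.9 and 56.7 RPKM against 38, 44 and 36.6 RPKM (log2 fold change −0.54, limma adjusted p = 0.000626). The treatments did not overlap in either line. TOMM20, the presequence receptor, was called in neither line. It had the highest mean level of all members in MOLM-13 cells, at 94.8, 84 and 83.7 RPKM with DMSO and 78.7, 78.8 and 96.2 RPKM with FP54. The groups overlapped, and the log2 fold change was −0.05 (SE 0.14). In NB4 cells TOMM20 was at 64.2, 58.1 and 65.3 RPKM with DMSO and 59, 61.8 and 63.5 RPKM with FP54, again overlapping, with a log2 fold change of −0.02 (SE 0.08). Both TOMM20 values lie close to 0. Quantile normalization turned them to 0.02 and 0.13, while median-ratio scaling gave −0.08 and −0.22, the NB4 value at a limma adjusted p of 0.0497 but under the fold minimum.

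The ratio of TOMM40 to TOMM20 within a library does not depend on the library total. It was 0.198 ± 0.0594 with DMSO and 0.0844 ± 0.00706 with FP54 in MOLM-13 cells, and 0.523 ± 0.0799 and 0.291 ± 0.0263 in NB4 cells (SD, n = 3), with no overlap in either line. Ratios were chosen with earlier results of these data known. This one sets the most changed TOM member against one near 0, so it restates the TOMM40 change. TOMM40L, a less abundant paralog of TOMM40, was called lower in NB4 cells only, at 5.09, 5.18 and 5.86 RPKM with DMSO and 3.47, 3.92 and 3.81 RPKM with FP54 (log2 fold change −0.51, limma adjusted p = 0.0024). Its MOLM-13 levels of 2.57, 1.14 and 1.87 RPKM with DMSO and 1.41, 1.51 and 1.24 RPKM with FP54 overlapped. Exons of TOMM40L overlap NR1I3 on the other strand over 20.1% of their length, and whether the counting used the strand is not stated in the sources used here.

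TOMM5, a small subunit of the channel core, was at 9.01, 7.81 and 7.91 RPKM with DMSO and 4.34, 5.48 and 4.92 RPKM with FP54 in NB4 cells, where it was called lower (log2 fold change −0.74, SE 0.11, limma adjusted p = 0.000391). In MOLM-13 cells its log2 fold change was as large, −0.78, but the levels of 6, 3.1 and 7.35 RPKM with DMSO and 1.92, 4.38 and 3.04 RPKM with FP54 overlapped and the standard error was 0.34. TOMM5 shares 14.4% and 9.4% of its exon bases with 2 other protein-coding genes on the same strand. TOMM7, another small subunit, had log2 fold changes of 0.21 and 0.09, and TOMM70, the receptor for carrier proteins, of −0.21 and −0.22, in MOLM-13 and NB4 cells. Neither was called. TOMM34, a cytosolic cochaperone of import, was at −0.45 and −0.41 on the same log2 scale, under the fold minimum in both lines, with no overlap between the treatments in NB4 cells. TOMM6 was listed at 0 in all 12 libraries. All of its annotated exon bases also belong to another protein-coding gene on the same strand, so its level cannot be read from these tables.

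**Figure D2:**
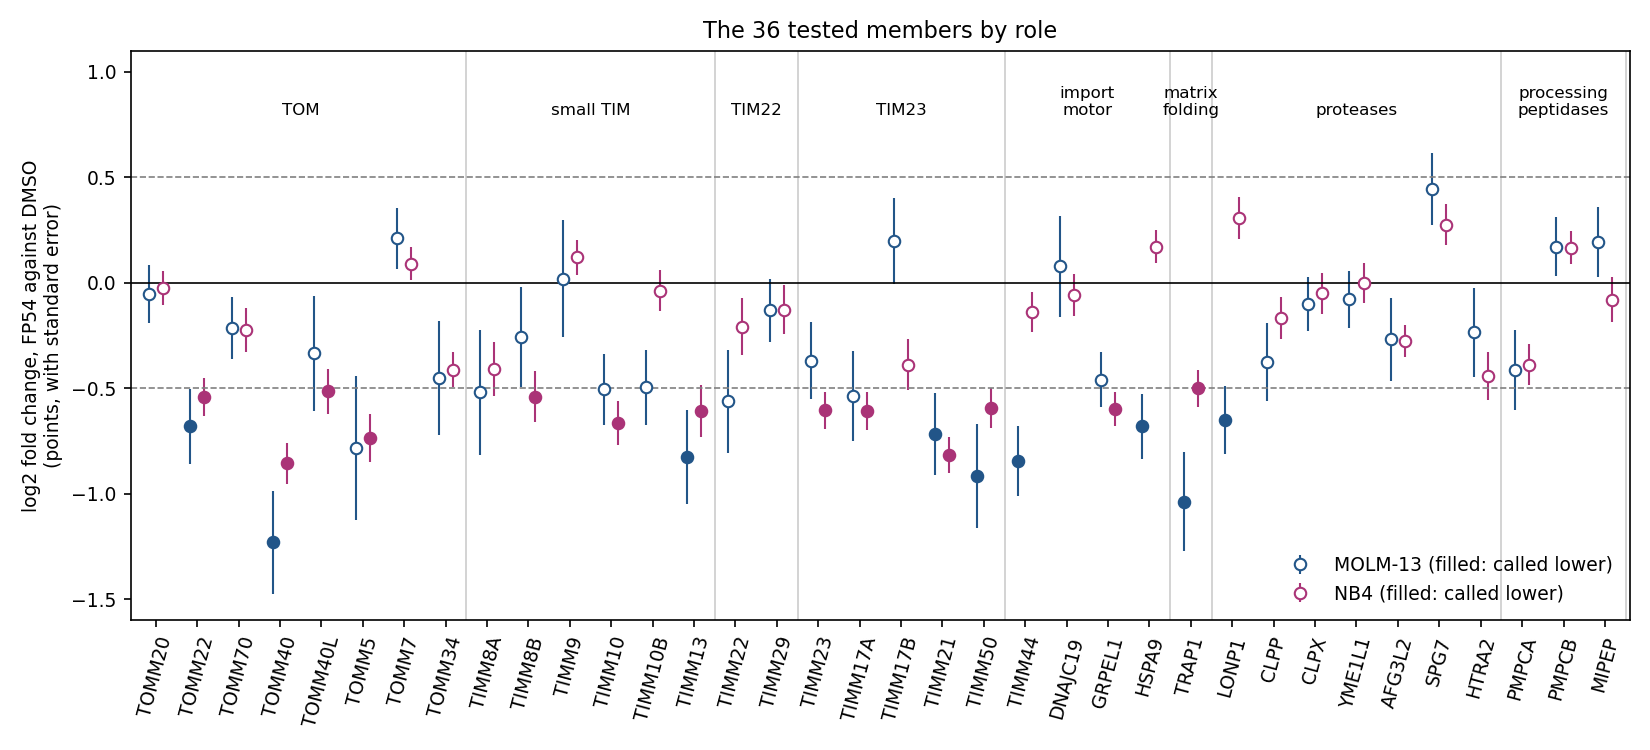
Log2 fold change of FP54 against DMSO (points) with its standard error (lines) for the 36 tested members, ordered by role, in MOLM-13 (blue) and NB4 (magenta) cells. Filled points were called lower and dashed lines mark the fold minimum of 0.5. Filled points in MOLM-13 cells number 2 in TOM, 1 in the small TIM proteins, 2 in TIM23, 2 in the import motor, 1 for TRAP1 and 1 in the proteases, and in NB4 cells 4, 3, 4, 1, 1 and 0.

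Small TIM proteins escort carriers and other hydrophobic precursors across the intermembrane space. Of these 6, MOLM-13 had 1 called lower and NB4 had 3, and their summed RPKM with FP54 was 71.1% and 69.6% of the DMSO mean. TIMM13, the partner of TIMM8A and TIMM8B, was called in both lines. It was at 43, 30.2 and 48.7 RPKM with DMSO and 16.8, 27.9 and 24.1 RPKM with FP54 in MOLM-13 cells (log2 fold change −0.83, SE 0.22, limma adjusted p = 0.0292). In NB4 cells the levels were 37.3, 53.1 and 41.8 RPKM against 29.3, 30.1 and 26.4 RPKM (log2 fold change −0.61, SE 0.12, limma adjusted p = 0.0021). In each line the highest FP54 library was below the lowest DMSO library. TIMM13 exons overlap TMPRSS9 on the other strand over 20.1% of their length.

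TIMM10, which pairs with TIMM9 in the main carrier chaperone, had the highest mean level of all members in NB4 cells with DMSO, while HSPA9 had it with FP54. TIMM10 was at 103.5, 137.5 and 123.4 RPKM with DMSO and 74.1, 78.6 and 75.3 RPKM with FP54 there, a log2 fold change of −0.67 (SE 0.10, limma adjusted p = 0.000427). The MOLM-13 levels of 37.8, 26.9 and 40.9 RPKM with DMSO and 23.9, 25.2 and 24 RPKM with FP54 did not overlap either, but at a log2 fold change of −0.51 the unadjusted p of 0.0125 missed the cutoff. TIMM9 itself was not called, with log2 fold changes of 0.02 and 0.12 in MOLM-13 and NB4 cells and overlapping treatments in both. TIMM8B was called lower in NB4 cells, at 48.7, 65.8 and 66.5 RPKM with DMSO and 41.6, 43.3 and 38.2 RPKM with FP54 (log2 fold change −0.54, limma adjusted p = 0.00367). Its MOLM-13 levels of 24.8, 12.4 and 23 RPKM with DMSO and 14.5, 16.3 and 17.4 RPKM with FP54 overlapped. TIMM8B shares 30.1% of its exon bases with NKAPD1 on the other strand. TIMM8A, mutated in deafness-dystonia syndrome, had log2 fold changes of −0.52 and −0.41 and was not called, without overlap in NB4 cells (limma adjusted p = 0.02). TIMM10B, which joins TIMM9 and TIMM10 at TIM22, had values of −0.50 and −0.04 on that scale and was not called either.

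TIM22 inserts carrier proteins into the inner membrane. Neither its channel subunit TIMM22 (log2 fold changes −0.56 and −0.21, MOLM-13 first) nor TIMM29, which supports its assembly (−0.13 in each line), was called. TIMM22 was one of the lowest members, with a mean of 1.54 RPKM with DMSO in MOLM-13 cells and 14 reads in the library with the fewest. Its MOLM-13 treatments did not overlap (limma adjusted p = 0.127).

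TIM23 takes up presequence proteins, and of its 5 members 2 were called lower in the MOLM-13 comparison and 4 in the NB4 one. Their summed RPKM with FP54 was 71% and 65.5% of the DMSO mean. TIMM50, the receptor of the complex in the intermembrane space, lies on chromosome 19 (39480412 to 39493785, hg38). It was at 7.44, 4.05 and 6.82 RPKM with DMSO and 2.8, 2.65 and 3.94 RPKM with FP54 in MOLM-13 cells (log2 fold change −0.92, limma adjusted p = 0.0292), with DMSO replicate 2 only just above the highest FP54 library. In NB4 cells it was at 7.69, 8.15 and 7.87 RPKM against 4.92, 5.51 and 5.18 RPKM (log2 fold change −0.59, limma adjusted p = 0.000459), with a clear gap between the treatments.

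TIMM21, which docks TIM23 to TOM, was also called in both lines. The MOLM-13 levels were 13.6, 10.9 and 15.4 RPKM with DMSO and 6.45, 9.97 and 7.79 RPKM with FP54 (log2 fold change −0.72, limma adjusted p = 0.0294). The NB4 levels were 12.6, 12.8 and 12.4 RPKM against 7.43, 6.81 and 7.12 RPKM (log2 fold change −0.82, limma adjusted p = 3.33e-05). The SD was at most 0.308 RPKM in each NB4 group, and the treatments did not overlap in either line. TIMM23, the channel subunit, was at 60.5, 61.9 and 72.2 RPKM with DMSO and 43.1, 42 and 42.4 RPKM with FP54 in NB4 cells, where it was called lower (log2 fold change −0.61, limma adjusted p = 0.000266). In MOLM-13 cells the levels of 16.8, 11.7 and 17.8 RPKM with DMSO and 12.8, 10.2 and 12.3 RPKM with FP54 overlapped (log2 fold change −0.37). TIMM23 has a near-identical copy, TIMM23B, and reads shared by the 2 genes make both levels uncertain. TIMM23B reached at most 0.199 RPKM in the MOLM-13 and 1.17 RPKM in the NB4 libraries.

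TIMM17A and TIMM17B are alternative subunits of TIM23, TIMM17A being the one known to turn over under stress. TIMM17A was called lower in NB4 cells, at 13, 12.3 and 13.3 RPKM with DMSO and 8.59, 8.75 and 7.88 RPKM with FP54 (log2 fold change −0.61, limma adjusted p = 0.000283). Its MOLM-13 levels were 10.7, 6.55 and 9.39 RPKM with DMSO and 5.15, 5.48 and 7.5 RPKM with FP54 (log2 fold change −0.54, limma adjusted p = 0.102), with FP54 replicate 3 inside the DMSO range. TIMM17B was not called in either line. In MOLM-13 cells it was at 5.16, 3.66 and 4.54 RPKM with DMSO and 6.01, 3.89 and 5.56 RPKM with FP54, and in NB4 cells at 10.8, 12.7 and 9.89 RPKM against 8.74, 9.28 and 7.38 RPKM. The treatments overlapped in MOLM-13 cells and not in NB4 cells, where the log2 fold change was −0.39. The ratio of TIMM17A to TIMM17B in MOLM-13 libraries was 1.98 ± 0.159 with DMSO and 1.2 ± 0.303 with FP54 without overlap, while in NB4 libraries, at 1.17 ± 0.191 and 0.998 ± 0.0636, it overlapped (SD, n = 3). Exons of TIMM17B overlap PQBP1 on the other strand over 15.5% of their length.

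Of the 4 tested members of the import motor, 2 were called lower in MOLM-13 cells, HSPA9 and TIMM44, and 1 in NB4 cells, GRPEL1. HSPA9 (mortalin), the matrix HSP70 that pulls precursors inward, lies on chromosome 5 (138553756 to 138575675, hg38). It was at 79.6, 69.7 and 83.5 RPKM with DMSO and 40.7, 56.2 and 49 RPKM with FP54 in MOLM-13 cells (log2 fold change −0.68, SE 0.15, limma adjusted p = 0.0154). No FP54 library reached the DMSO range. The NB4 levels lay the other way, at 87.5, 87 and 95.4 RPKM with DMSO and 103.1, 102.5 and 97.9 RPKM with FP54, also without overlap. That log2 fold change of 0.17 (SE 0.08, limma adjusted p = 0.0886) was not called, and under median-ratio scaling it was −0.03.

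TIMM44 tethers HSPA9 to the TIM23 channel. Its MOLM-13 levels were 19.4, 15.7 and 23.3 RPKM with DMSO and 10, 11.5 and 10.5 RPKM with FP54 (log2 fold change −0.84, SE 0.17, limma adjusted p = 0.00969), and the treatments did not overlap. Its NB4 levels of 27.7, 34.5 and 30.3 RPKM with DMSO and 28.3, 28.7 and 26.8 RPKM with FP54 overlapped (log2 fold change −0.14, SE 0.10). GRPEL1, the nucleotide exchange factor of HSPA9, was at 26.1, 22.5 and 24.7 RPKM with DMSO and 17.8, 18.1 and 17.4 RPKM with FP54 in MOLM-13 cells. This gave a log2 fold change of −0.46 (SE 0.13, limma adjusted p = 0.0342), just under the fold minimum and without overlap. In NB4 cells GRPEL1 was called lower, at 31.1, 34.5 and 32.2 RPKM with DMSO and 21.9, 21.2 and 21.3 RPKM with FP54 (log2 fold change −0.60, SE 0.08, limma adjusted p = 0.000155). The difference between the lines was −0.14 for GRPEL1 (SE 0.14, limma adjusted p = 0.543).

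The HSPA9 to GRPEL1 ratio in NB4 libraries was 2.76 ± 0.223 with DMSO and 4.71 ± 0.122 with FP54, without overlap, against 3.17 ± 0.178 and 2.74 ± 0.413 with overlap in MOLM-13 libraries (SD, n = 3). Of the J proteins that regulate the motor, DNAJC19 had log2 fold changes of 0.08 and −0.06 with overlapping treatments. PAM16 did not reach the level filter in either line, with at most 0.492 RPKM and 3 to 22 reads a library, and it shares 22.4% of its exon bases with a readthrough gene.

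TRAP1, the HSP90 of the matrix, was the second most changed member in MOLM-13 cells. It lies on chromosome 16 (3651639 to 3717553, hg38). Levels were 27.9, 15.6 and 28 RPKM with DMSO and 8.998, 12.2 and 12.6 RPKM with FP54, a log2 fold change of −1.04 (SE 0.23, limma adjusted p = 0.0156). In NB4 cells TRAP1 was at 57.2, 66.9 and 57.5 RPKM with DMSO and 41.2, 44.8 and 42 RPKM with FP54, and its log2 fold change of −0.50 (SE 0.09, limma adjusted p = 0.000923) lay at the edge of the fold minimum. Neither line showed any overlap between the treatments. TRAP1 shares 28.5% of its exon bases with DNASE1 on the other strand.

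Among the 7 proteases only LONP1 was called, in MOLM-13 cells. LONP1, the AAA+ protease that clears misfolded and oxidized matrix proteins, lies on chromosome 19 (5691834 to 5720572, hg38). It was at 84.7, 75.5 and 95 RPKM with DMSO and 47.1, 65.2 and 50.9 RPKM with FP54 in MOLM-13 cells (log2 fold change −0.65, SE 0.16, limma adjusted p = 0.0207), without overlap. In NB4 cells it was at 46.5, 56.7 and 46.6 RPKM with DMSO and 59.5, 66.2 and 59.2 RPKM with FP54, every FP54 library being above every DMSO library. The log2 fold change there was 0.31 (SE 0.10, limma adjusted p = 0.0228), under the fold minimum, with an unadjusted p of 0.0101. Over the alternatives and left-out libraries it ranged from 0.11 to 0.46, at limma adjusted p-values of 0.000721 to 0.443.

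CLPP, the peptidase of the second matrix AAA+ protease, was at 13, 10.4 and 12.7 RPKM with DMSO and 11.5, 7.24 and 9.42 RPKM with FP54 in MOLM-13 cells, and at 8.24, 9.53 and 8.78 RPKM against 8.31, 7.3 and 8 RPKM in NB4 cells. The treatments overlapped in both lines. The ratio of LONP1 to CLPP in NB4 libraries was 5.63 ± 0.321 with DMSO and 7.88 ± 1.04 with FP54 without overlap, and it overlapped in MOLM-13 libraries, at 7.07 ± 0.516 and 6.17 ± 2.55 (SD, n = 3). Against YME1L1, an inner membrane protease, the LONP1 ratio overlapped in both lines. That ratio was 2.93 ± 0.687 with DMSO and 3.57 ± 0.212 with FP54 in NB4 libraries. In MOLM-13 libraries it was 2.27 ± 0.485 and 1.54 ± 0.395. CLPX, the unfoldase partner of CLPP, had log2 fold changes of −0.10 and −0.05.

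YME1L1, the inner membrane protease that faces the intermembrane space, showed no detectable difference. Its levels were 39.4, 40.6 and 33.8 RPKM with DMSO and 36.9, 32.8 and 37.9 RPKM with FP54 in MOLM-13 cells, and 18.6, 15.2 and 18.2 RPKM against 16.9, 17.4 and 17.5 RPKM in NB4 cells. The log2 fold changes were −0.08 (SE 0.14) and −0.002 (SE 0.10), the NB4 value being so near 0 that its sign turned with quantile normalization (0.03). AFG3L2 and SPG7, the subunits of the matrix-facing protease, went to opposite sides of 0. AFG3L2 was at −0.27 and −0.28 on the log2 scale and SPG7 at 0.44 and 0.28, in MOLM-13 and NB4 cells, all under the fold minimum. SPG7 was the 1 member with every FP54 library above every DMSO library in both lines. HTRA2, a protease of the intermembrane space, was at −0.24 and −0.44 and was not called. In NB4 cells the FP54 libraries were all below the DMSO libraries for HTRA2 and AFG3L2 (limma adjusted p = 0.00745 and 0.0112).

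Processing peptidases remove the presequence, and 0 of the 3 was called in either line. Their summed RPKM with FP54 was 103% (MOLM-13) and 100.2% (NB4) of the DMSO mean, beside 98.4% and 93.3% for all genes. PMPCB, the catalytic subunit of the main peptidase, was at 20.9, 17.4 and 18 RPKM with DMSO and 21, 19.5 and 22.8 RPKM with FP54 in MOLM-13 cells, overlapping. In NB4 cells it was at 27.1, 24.7 and 26.5 RPKM against 29.2, 28.7 and 29.8 RPKM without overlap, but the log2 fold change of 0.17 (limma adjusted p = 0.102) was not called and became −0.03 under median-ratio scaling. PMPCA, its presequence-binding partner, had log2 fold changes of −0.41 and −0.39, not called. In NB4 cells its treatments did not overlap (limma adjusted p = 0.00633). The PMPCA to PMPCB ratio was 0.425 ± 0.0962 with DMSO and 0.28 ± 0.0468 with FP54 in MOLM-13 libraries, and 0.45 ± 0.0648 and 0.304 ± 0.0135 in NB4 libraries (SD, n = 3), without overlap in either line. MIPEP, which makes a second cut in some precursors, was at 0.19 and −0.08 on the log2 scale.

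**Figure D3:**
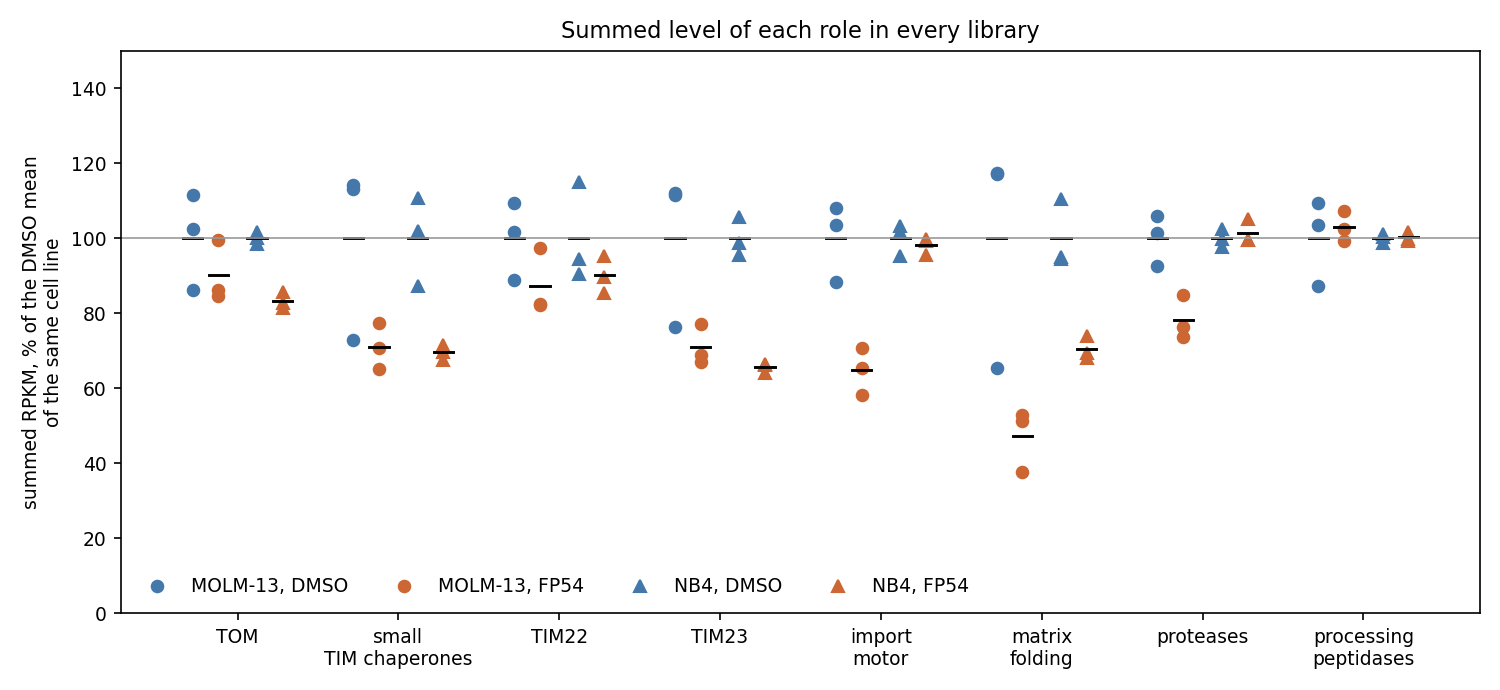
Summed RPKM of each role in every library, as a percentage of the DMSO mean of the same cell line (circles for MOLM-13, triangles for NB4, blue for DMSO, orange for FP54, black bars for means). The import motor and protease sums with FP54 lie at 64.8% and 78.2% for MOLM-13 and at 98.2% and 101.4% for NB4, while the TIM23 sums lie at 71% and 65.5%. The sum over all genes, not drawn, was 98.4% for MOLM-13 and 93.3% for NB4.

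Role sums weight each gene by its level. HSPA9 made up 55.8% to 63.9% of the motor sum and LONP1 33.9% to 45.9% of the protease sum in the 4 groups. The motor sum was 125.3 ± 12.9 RPKM with DMSO and 81.2 ± 7.86 RPKM with FP54 in MOLM-13 cells, and 161.2 ± 6.87 and 158.3 ± 3.64 RPKM in NB4 cells (SD, n = 3). For the proteases the sums were 185.5 ± 12.6 and 145.1 ± 10.8 RPKM in MOLM-13 cells and 147.2 ± 3.54 and 149.2 ± 4.75 RPKM in NB4 cells. The TIM23 sums were 48.1 ± 9.83 and 34.2 ± 2.57 RPKM in MOLM-13 cells and 109.4 ± 5.67 and 71.7 ± 1.48 RPKM in NB4 cells. The tables of the 2 lines were made separately, and levels were not tested across them.

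Whether FP54 acted differently on a member in the 2 lines was tested by the interaction term of treatment and line in a limma fit to all 12 libraries. At an adjusted p below 0.05, 3 of the 36 members (8.33%) had a higher effect in NB4 than in MOLM-13 cells and 0 a lower one. Of all 8849 genes tested in both lines 10.5% were higher and 3.75% lower, so the members' share was not above that of all genes. At an unadjusted p below 0.05, 1 member had a lower effect in NB4 cells, TIMM17B, at −0.59 (limma adjusted p = 0.139). LONP1 had the largest difference, 0.96 on the log2 scale (SE 0.19, limma adjusted p = 0.00424), followed by HSPA9 at 0.85 (SE 0.17, limma adjusted p = 0.00431). Both held under each alternative setting, with adjusted p-values of 0.000827 to 0.0404 for LONP1 and 0.000878 to 0.0294 for HSPA9. TIMM44 differed by 0.71 (SE 0.19, limma adjusted p = 0.0258), and this call was lost under median-ratio scaling (difference 0.53, adjusted p = 0.0993). It was also lost without DMSO replicate 1 or 3 or any FP54 replicate in both lines, at adjusted p-values of 0.0594 to 0.132. At the adjusted p TIMM17B passed in that direction, with a lower effect in NB4 cells, under either scaling alternative and without FP54 replicate 2, but not in the fit reported here.

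**Figure D4:**
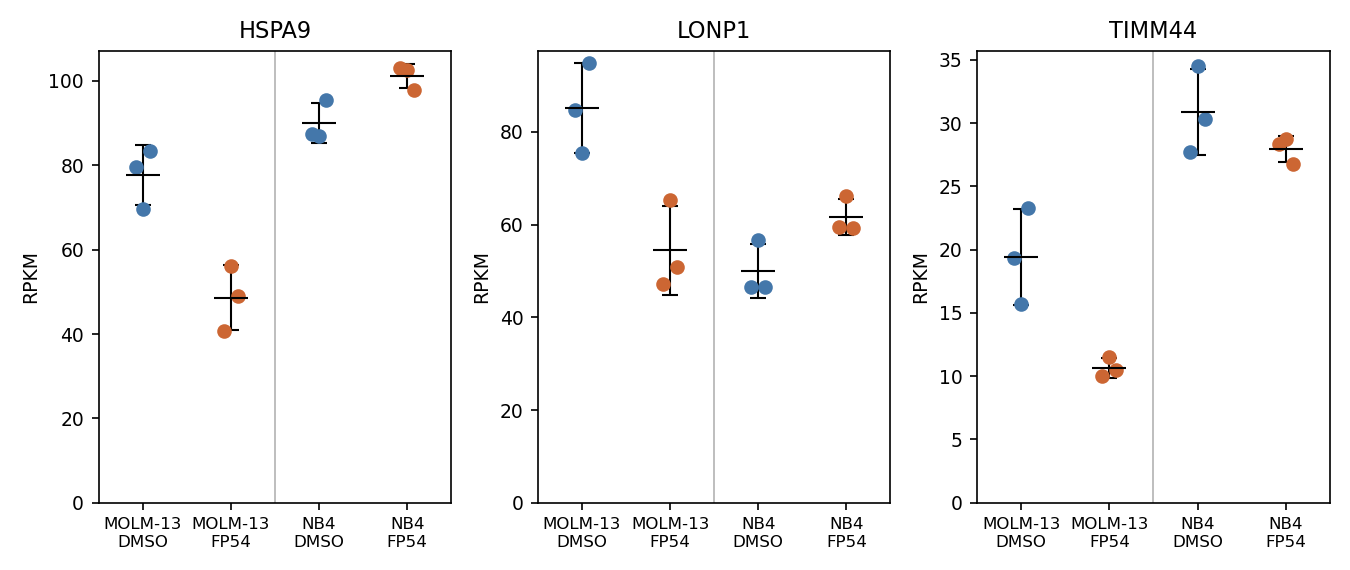
RPKM of HSPA9, LONP1 and TIMM44 in every library (points), with the mean and SD (black), for MOLM-13 and NB4 cells with DMSO (blue) and FP54 (orange). In MOLM-13 cells all FP54 points lie below all DMSO points, whereas in NB4 cells those of HSPA9 and LONP1 lie above and those of TIMM44 overlap.

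Members called lower in both lines were TOMM22, TOMM40, TIMM13, TIMM21, TIMM50 and TRAP1, 6 in all. They are 66.7% of the MOLM-13 calls and 46.2% of the NB4 calls, and 3.2% of all genes tested in both lines were called lower in both. HSPA9, LONP1 and TIMM44 were called in MOLM-13 cells only. TOMM5, TOMM40L, TIMM8B, TIMM10, TIMM17A, TIMM23 and GRPEL1 were called in NB4 cells only, and for none of these 7 did the difference between the lines pass the test. Fold changes of 27 members were below 0 in both lines, 4 were above 0 in both and 5 had opposite signs. Across the 36 members Pearson's r between the 2 lines was 0.597 and Spearman's rho 0.566, beside an r of 0.441 across all genes. These are correlations across genes, which are not independent replicates.

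**Figure D5:**
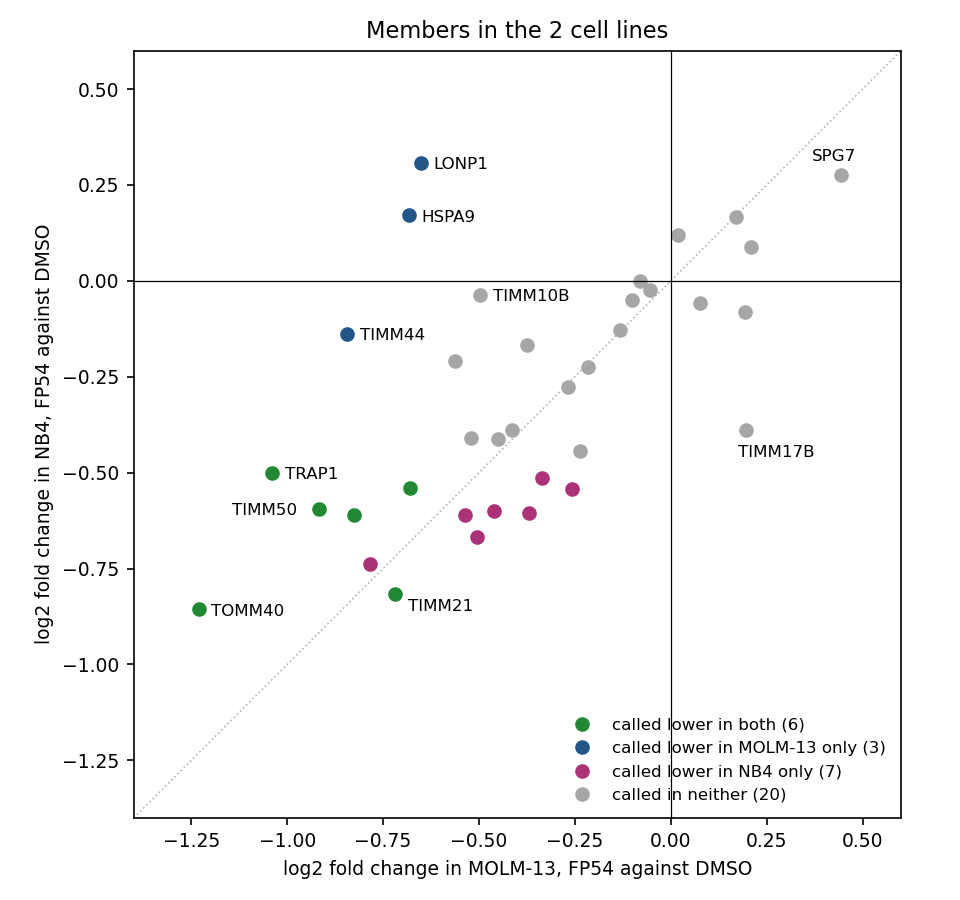
Log2 fold change with FP54 in MOLM-13 cells (x axis) against NB4 cells (y axis) for the 36 tested members, colored by the line in which they were called lower, with equal values on the dotted line. LONP1 (−0.65, 0.31), HSPA9 (−0.68, 0.17) and TIMM44 (−0.84, −0.14) lie farthest above the dotted line.

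Promoter windows of the members were read for 3 motifs whose factors are known regulators of growth, respiration and stress genes. The windows, from RefSeq on GRCh38.p14, run from 250 bases before to 50 bases after the gene's start, and 33 of the 38 members had one. CACGTG, the E-box bound by MYC and related factors, is its own reverse complement and was in 6 of the 33 windows (18.2%), beside 8.55% of all 15270 windows and 10.8% of the 7311 windows of genes tested in both lines. Its holders were LONP1, HSPA9, TIMM10, TOMM20, TIMM8A and MIPEP. LONP1, HSPA9 and TIMM10 were called lower in 1 line each and the other 3 in neither. The windows of LONP1 (with 2 matches), HSPA9, TIMM10 and TOMM20 are shown because these members differed between the lines or had the highest mean level with DMSO in 1 of them, 30 bases each on the minus strand with the E-box in capitals.
LONP1, chr19:5720341-5720370: ctcacagccttcCACGTGaccggaaaaggc
LONP1, chr19:5720178-5720207: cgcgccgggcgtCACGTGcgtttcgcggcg
HSPA9, chr5:138575403-138575432: cgcccctcacccCACGTGgttggaggtttc
TIMM10, chr11:57530738-57530767: ccggaagtaaccCACGTGcttccgctggag
TOMM20, chr1:235128988-235129017: aaagtccgtggtCACGTGcaaattcccgac

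Counted from the gene's start in RefSeq, the matches begin at −212 and −49 in LONP1, −19 in HSPA9, −1 in TIMM10 and −168 in TOMM20. The gene spans given further above are from the GENCODE annotation, whose starts differ. By those spans the sites of LONP1 and HSPA9 lie inside the genes. GCATGCGC, a site of the respiratory factor NRF1 read on both strands, was in the windows of TOMM7, TIMM9, TIMM10B and PAM16, 12.1% of the members' windows beside 4.13% of all windows and 6.25% of the tested ones. The first 3 were tested and not called in either line. TGATGCAA, the composite site of the stress factor ATF4, also read on both strands, was in the windows of TIMM22 and PMPCB, 6.06% beside 0.675% of all windows and 0.465% of the tested ones, and neither was called. A match describes letters in a window, and no binding was measured here.

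Other genes of the pathway were taken from a list of 43 that act beside the members in membrane insertion, cristae structure, matrix folding and quality control. This list, too, was chosen with earlier results of these data known. In MOLM-13 cells 38 were tested, 9 (23.7%) were called lower and 1 (2.63%) higher, beside 9.04% and 9.3% of all genes tested. Their median log2 fold change was −0.28. In NB4 cells 41 were tested, 12 (29.3%) were called lower and 1 (2.44%) higher, beside 10.7% and 18.6% of all genes tested. Their median was −0.29. CHCHD4, the oxidoreductase that traps the small TIM proteins in the intermembrane space, fell from 16.8 ± 5.03 to 8.04 ± 1.65 RPKM in MOLM-13 cells and from 32.6 ± 1.67 to 15.2 ± 0.792 RPKM in NB4 cells (SD, n = 3). Its log2 fold changes were −1.02 and −1.09 (limma adjusted p = 0.0171 and 4.26e-06). CLPB, the disaggregase of the intermembrane space, was called lower in both lines at −0.88 and −0.74.

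The largest MOLM-13 fall was that of MTCH2, an insertase of the outer membrane, at −1.11 (limma adjusted p = 0.0171), with APOO, of the cristae complex, at −1.06. GRPEL2, the paralog of GRPEL1, was called lower there at −1.01, and HSPD1, the HSP60 chaperonin, fell from 84.3 ± 9.42 to 49.4 ± 7.92 RPKM (log2 fold change −0.78, limma adjusted p = 0.0103). In NB4 cells PHB1, the prohibitin that scaffolds inner membrane proteases, fell most, from 42.8 ± 6.02 to 18.3 ± 0.657 RPKM (log2 fold change −1.21, limma adjusted p = 9.58e-06). HSPE1, the HSP10 lid of the chaperonin, was called lower at −0.94, MTX1, a partner of the outer membrane assembly complex, at −0.76, and PARL, a rhomboid protease, at −0.76. PARL lay the other way in MOLM-13 cells, at 0.37 (limma adjusted p = 0.127, not called), every FP54 library being above every DMSO library. PHB1 was called lower in MOLM-13 cells too (−0.74), and MTCH2 and HSPD1 in NB4 cells (−0.54 each). Not called in the other line were HSPE1 (−1.02) and MTX1 (−0.22) in MOLM-13 cells, and APOO (−0.38) and GRPEL2 (−0.22) in NB4 cells. The 1 gene called higher in each line, named after its value was seen, was OMA1, a stress-activated inner membrane protease, in MOLM-13 cells (log2 fold change 0.58, limma adjusted p = 0.0468) and HSCB, an iron-sulfur cochaperone, in NB4 cells (0.63, limma adjusted p = 0.00507). OMA1 was also higher in NB4 cells without overlap, at 0.43, under the fold minimum (limma adjusted p = 0.00774). HSCB was at 0.02 in MOLM-13 cells.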

How the data were processed

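Poly(A) RNA-seq libraries of MOLM-13 and NB4 cells were analysed, 3 per treatment and line. The deposited values are RPKM, which the authors made by trimming reads with cutadapt 4.8, removing duplicates, aligning to hg38 with STAR 2.7.11b and counting reads on protein-coding genes with featureCounts 2.0.3, tools and versions being those in the submitters' processing notes. The libraries came from a stranded kit, and whether the counting used the strand is not given in the sources used here. The lengths and totals behind the RPKM are not given either. With lengths of the GENCODE v44 annotation, 98.15 to 98.92% of values under 50 reads came out within 0.02 of whole reads. These recovered reads gave the depths and the limma-voom alternative. The columns of the tables name treatment and replicate, and the cell line rests on the name of each table.

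Log2(RPKM + 0.1) was fitted with limma 3.58.1 in R 4.3.3 (lmFit, then eBayes with the variance trended on intensity), keeping genes whose mean was 1 RPKM or more, without a replicate block, and tables were handled in Python 3.11.15. The fit was tested on simulated data with known changes and independent noise. That setting lacks the deviations that MOLM-13 libraries shared, so it cannot show how the calls hold in these data. Alternatives were pseudocounts of 1 and 0.01, no filter or one at 5 RPKM, median-ratio and quantile scaling, the block, eBayes without a trend, limma-voom, other cutoffs and leaving out each library. Library values are given for members called in at least 1 line without overlap and for 11 fixed members, and the 6 called genes of the other pathway list with the largest fold changes are named per line, besides the 1 called higher in each. The members, lists, ratios and tests were chosen with earlier results of these data known. Protein sequences and the promoters of 5 members were not used here.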

Additional observations from a re-analysis of the deposited data

Results flagged for a closer look

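The response of 3 members to FP54 differed between the cell lines in a test of the difference itself (NB4 minus MOLM-13, log2 scale, limma interaction over 12 libraries). These are 8.33% of the 36 members, and 10.5% of all genes passed in the same direction. LONP1 differed by 0.96 (adjusted p = 0.00424), being lower with FP54 in 3 of 3 MOLM-13 libraries and higher in 3 of 3 NB4 libraries than in every DMSO library. HSPA9 differed by 0.85 (adjusted p = 0.00431), with the same arrangement of its libraries. TIMM44 differed by 0.71 (adjusted p = 0.0258), with overlapping NB4 libraries, and this call was lost under 7 of 15 alternatives, at adjusted p-values of up to 0.132.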

How the results depend on the processing

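Over the alternatives, 600 of 670 single-gene values kept their direction and their side of the threshold, 50 lost and 8 gained a call, and 12 changed sign, none of them a called value. With no filter on low values, MOLM-13 gave 2 members lower (HSPA9 and TIMM44) and 530 genes lower, and NB4 gave 1 member higher (PAM16) and 4265 genes higher. With a filter at 5 RPKM, MOLM-13 gave 560 lower and 509 higher genes and NB4 789 higher, from fewer genes tested. Median-ratio scaling gave 2008 lower and 1184 higher NB4 genes. An adjusted p without a fold minimum gave 2164 lower and 2935 higher NB4 genes and 2 members higher (LONP1 and SPG7).

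Median-ratio and quantile scaling each gave 1 member with a lower effect in NB4 (TIMM17B). Quantile normalization turned TOMM20 to 0.024 (MOLM-13) and 0.13 (NB4) and YME1L1 to 0.027 in NB4, which was 0.0075 by limma-voom. Median-ratio scaling turned HSPA9 to −0.029 and PMPCB to −0.033 in NB4. The cause was not tested.

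Leaving out 1 library gave 4 to 19 members lower, 462 to 1213 genes lower and 540 to 1122 genes higher in MOLM-13, and 0 to 1 member with a lower and 2 to 5 with a higher effect in NB4 than in MOLM-13. TOMM20 ranged from −0.15 to 0.0052 in MOLM-13 and from −0.076 to 0.0076 in NB4, and YME1L1 from −0.092 to 0.052 in NB4.

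Same-numbered libraries did not deviate together (r from −0.262 to −0.058 in MOLM-13 and from −0.143 to 0.123 in NB4). Some MOLM-13 libraries with different numbers did. DMSO 1 with FP54 3 had an r of 0.593, DMSO 2 with FP54 1 of 0.494 and DMSO 3 with FP54 2 of 0.475, every other pair being negative. In NB4 no pair was above 0.22. A block on the replicate numbers gave 9 members lower in MOLM-13 and 13 in NB4, and 2 members with a higher effect in NB4, TIMM44 losing its call (adjusted p = 0.0613). That block does not cover pairs with different numbers, and such a pairing was not tested.

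Depth limits TIMM22, TIMM8A, TOMM40L, PAM16 and other low members in the shallowest MOLM-13 library.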
